A study of Mus musculus with 14 samples.

Results

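Axon guidance ligands and receptors, 37 genes in all, were described across 14 RNA libraries of cells sorted from the mouse hippocampus. The members were chosen by name, as the rows of a table of 43346 genes whose mouse identifier carries one of 37 symbols, and all 37 were found. They comprise the ligands Ntn1 and Draxin, 4 netrin receptors, 5 Slits and Robos, 6 semaphorins, 8 plexins and neuropilins, 7 Eph receptors and 5 ephrins. The cells were live and GFP-positive, and the submitters describe them as adult-born granule cells, the neurons that the dentate gyrus adds in adult life. Each sample held 800 to 1000 cells, lysed directly, and polyadenylated RNA was turned into full-length cDNA with SMART-Seq v4.

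All mice were C57BL/6 with the genotype given as WT, all groups received clozapine-N-oxide (CNO), and all were profiled at day 14. CAG-GFP Sham (3 libraries) expressed GFP from the ubiquitous CAG promoter and had no seizures. CAG-GFP Pilo (4 libraries) expressed the same GFP after 300 mg/kg of pilocarpine, which activates muscarinic receptors and drives prolonged seizures; these were stopped with diazepam. DREADD Sham (4 libraries) expressed a DREADD, a designer receptor that CNO activates, and had no seizures. DREADD Pilo (3 libraries) expressed the DREADD after pilocarpine and is labelled as having seizures and being silenced; the library names of this group carry the name of hM4Di, a Gi-coupled receptor that silences neurons. Mouse age, the DREADD promoter and the delivery of either construct are not stated in the labels. Whether each library is a different animal is not stated either, and p-values then cover just the variation among these libraries, which may be technical.

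Libraries held 10613291 to 38614639 counts and 9372 to 20863 detected genes. They fell into a pair of library sets by the form of their names: set 1 comprised DREADD Sham 1 and 2, CAG-GFP Pilo 3 and 4 and the whole CAG-GFP Sham group, and set 2 the other 7. The pseudogene share was 0.117% to 0.2% for set 1 and 4.33% to 8.12% for set 2, so values within a set are given below beside the pooled ones. Other cell types left clear marker signal. Summed over 14 astrocyte markers, CAG-GFP Sham libraries held 29200 to 30700 CPM (a gene's counts over the TMM-adjusted library total, in the usual unit), against 842 to 6650 CPM in the other groups. The 13 oligodendrocyte markers summed to 622 to 721 CPM in CAG-GFP Sham and to 426 to 44900 CPM elsewhere. The 11 ependymal and choroid plexus markers summed to 161000 CPM in DREADD Pilo 3 and to at most 13800 CPM elsewhere. Mitochondrial genes made up 25.8% of the counts of DREADD Pilo 3 and 2.06% to 13.9% elsewhere. The immature neuron marker Dcx ranged from 0 to 6.56 CPM in CAG-GFP Sham and from 0 to 271 CPM elsewhere. The granule cell factor Prox1 was at 0 in CAG-GFP Pilo 4 and DREADD Pilo 3, but other genes of the neuronal marker lists had counts there. The 18 mature granule cell markers include genes of neurons in general, such as Snap25, Syt1 and Rbfox3. They summed to 1990 CPM in CAG-GFP Pilo 4 and 321 CPM in DREADD Pilo 3, with 6 and 5 at 0. In CAG-GFP Pilo 4 those at 0 were Prox1, Dsp, Maml2, Dgkh, Lct and Ntng1. The 16 immature neuron markers summed to 1010 and 32.2 CPM in these libraries, with 3 and 7 at 0. In such bulk samples fewer cells of a type and less RNA per cell cannot be told apart. The 3 CAG-GFP Sham libraries lay close together in several marker sums, such as microglia (5420 to 5690 CPM, against 814 to 13100 CPM in DREADD Sham). For single members they could differ more, with 4.43 to 62.2 CPM of Epha7. Whether they are independent of each other was not tested, which limits what groups not overlapping with them can show.

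Growth cones steer by cues that attract or repel them. Netrins act through Dcc and the Unc5 receptors, Slits through Robo receptors, semaphorins through plexins and, for the secreted class, neuropilins, and ephrins through Eph receptors on contact with a neighbouring cell. In the hippocampus these systems take part in laying out mossy fibres and other axons and in placing migrating neurons, and several members are also used by glia and vessels.

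No member passed the edgeR quasi-likelihood test over all genes in any of 5 comparisons (Benjamini-Hochberg adjusted p under 0.05). The test covered 36 members, since the counts of Sema3a were too few for the filter. The members were detected unevenly: 92 of 518 member and library pairs (17.8%) had no count, and 10 members had counts in all 14 libraries, namely Unc5c, Sema5a, Sema6a, Plxna4, Plxnb1, Plxnb2, Nrp1, Epha4, Epha5 and Epha7. CAG-GFP Pilo 3 held counts of all 37 members and CAG-GFP Pilo 4 of 16, although the latter had the highest total. A count of 0 there allows up to 0.056 CPM, taking 3 counts as the limit, and up to 0.334 CPM in DREADD Pilo 3; these limits cover counting error only, since the reads carry no molecular identifiers.

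**Figure D1:**
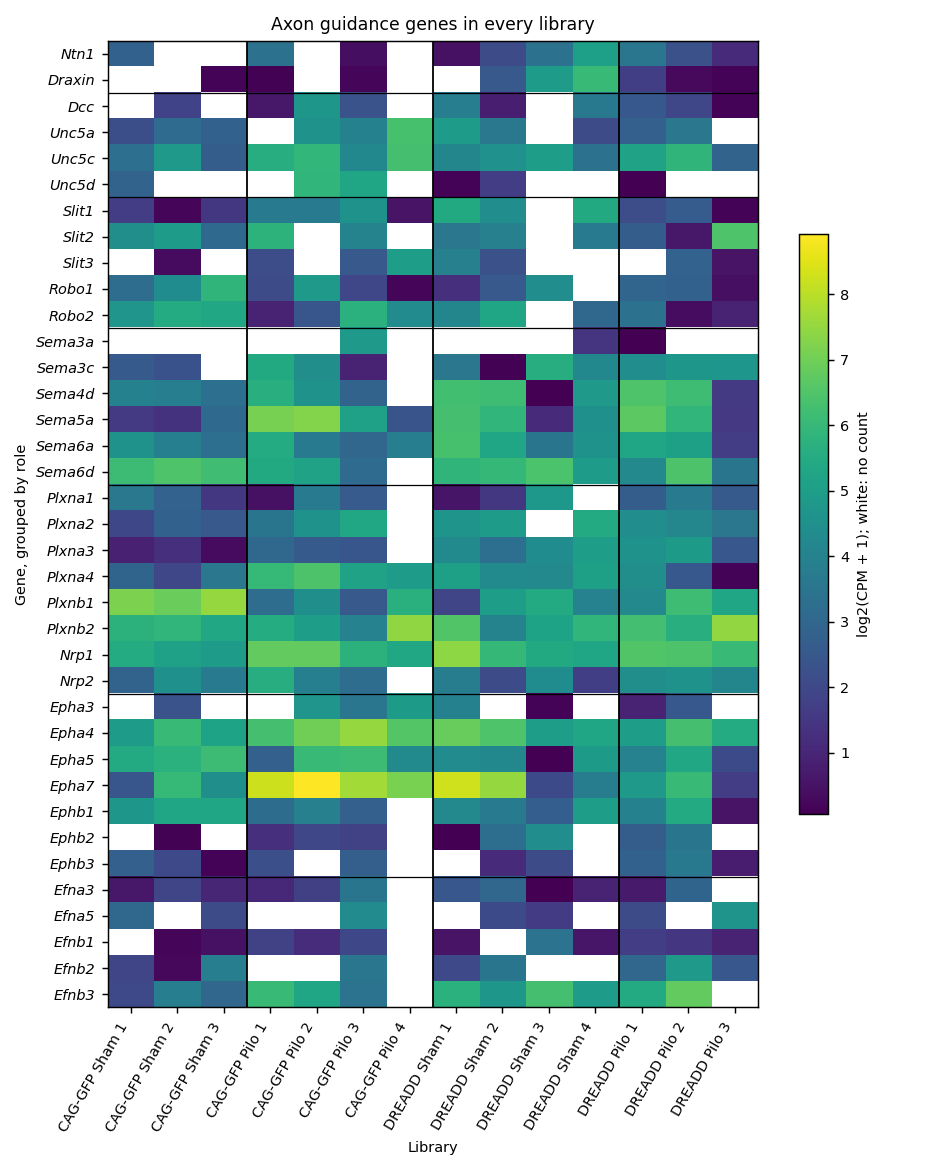
Level of the 37 genes (rows, grouped by role) in the 14 libraries (columns, grouped by condition), as log2(CPM + 1), with white for no count. CAG-GFP Pilo 4 has 21 white cells and CAG-GFP Pilo 3 none, and Plxnb1 is brightest in the 3 CAG-GFP Sham libraries.

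Per length, Epha7 stood highest of the members, with a mean of 13.2 CPM per kb of exon over the 14 libraries. The ephrin Efnb3 followed at 10.6, Epha4 at 9.23, Plxnb2 at 8.51, Nrp1 at 7.14 and Plxnb1 at 5.62 CPM per kb. Sema3a was lowest at 0.154 CPM per kb, below Ephb2 at 0.291 and Dcc at 0.358. This order differed between groups: Plxnb1 led in CAG-GFP Sham at 15.6 CPM per kb, Epha7 in CAG-GFP Pilo at 28.6, Efnb3 in DREADD Sham at 14.6 and again in DREADD Pilo at 16 CPM per kb. In DREADD Sham, Epha7 lay next to Efnb3 at 12.9 CPM per kb, and the libraries of both genes spread more widely than that gap.

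The region before the start site is shown for 3 receptors, Epha4 and Epha7, which were higher, and Plxnb1, which was lower. Their CAG-GFP Pilo libraries did not overlap with the CAG-GFP Sham libraries, and their unadjusted edgeR p there was under 0.05. Plxna4 met the same conditions, but no window was available for it. Each window runs from 250 to 51 bases before the RefSeq start (GRCm38.p6), 200 bases in all, written 5′ to 3′ on the gene's strand, at chr1:77515139-77515338 (minus strand) for Epha4, chr4:28812881-28813080 (plus strand) for Epha7 and chr9:109095186-109095385 (plus strand) for Plxnb1. Capitals mark GC boxes, GGGCGG on either strand.
Epha4: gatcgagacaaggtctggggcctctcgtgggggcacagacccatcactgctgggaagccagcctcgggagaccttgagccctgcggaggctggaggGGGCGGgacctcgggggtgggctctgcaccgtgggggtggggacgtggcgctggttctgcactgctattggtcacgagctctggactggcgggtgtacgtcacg
Epha7: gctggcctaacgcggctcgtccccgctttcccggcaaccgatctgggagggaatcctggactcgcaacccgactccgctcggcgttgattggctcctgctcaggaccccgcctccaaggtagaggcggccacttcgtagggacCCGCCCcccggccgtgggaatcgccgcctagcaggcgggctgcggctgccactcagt
Plxnb1: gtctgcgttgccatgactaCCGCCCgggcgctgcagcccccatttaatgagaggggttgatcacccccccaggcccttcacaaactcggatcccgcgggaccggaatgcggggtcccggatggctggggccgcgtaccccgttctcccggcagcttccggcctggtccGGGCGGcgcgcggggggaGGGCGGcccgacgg

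The GC box occurred 3 times in the Plxnb1 window and once in each Eph window, and in 24.6% of all 32851 windows of that length. Of the 29 members with a window, 20 held a GC box in any of their windows. Some members have several windows, so this count is by gene, while the 24.6% is by window. The groups of Ephb1 and Sema6d did not overlap either, but with an unadjusted edgeR p of 0.154 and 0.187. Ephb1 held no GC box, and Sema6d held 1 before start site 1 and 0 before start site 2. The E-box CAGCTG, the cAMP response element TGACGTCA and the AP-1 site TGANTCA, searched on both strands, had no match in these 3 windows and occurred in 10.3%, 0.828% and 5.57% of all windows. These 4 searches describe letters in the windows only.

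The first comparison addressed seizures without the DREADD. In CAG-GFP Pilo against CAG-GFP Sham, 0 of 36 members were called, where 0.241% of 18676 genes were, and 5 members (13.9%) had an unadjusted p under 0.05, against 15.4% of all genes. These 5 were Plxnb1, lower, and Sema5a, Plxna4, Epha4 and Epha7, higher. The count ranged from 2 without CAG-GFP Pilo 2 to 7 without CAG-GFP Pilo 3, and was 3 without CAG-GFP Sham 3. The counts over all genes moved too, with 2231 of 18596, 3398 of 17988 and 1632 of 19883 in the same order. Of the 36 members, 26 had a positive fold change (72.2%, against 58.6% of all genes), with a median log2 fold change of 1.19 against 0.41. The members' median ranged from 0.96 without CAG-GFP Pilo 2 to 1.88 without CAG-GFP Sham 2. Every CAG-GFP Pilo library lay above every CAG-GFP Sham library for 3 members (6.55% of all genes did so) and below for another 3 (12.2% of all genes), and these 6 are described next.

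Plxnb1 (ENSMUSG00000053646, chromosome 9 at 109095389 to 109119917 on GRCm38) encodes the plexin that binds Sema4d. It stood at 145, 119 and 184 CPM in CAG-GFP Sham 1 to 3, and at 8.45, 21.4, 4.8 and 51.1 CPM in the CAG-GFP Pilo libraries 1 to 4. The DREADD Sham libraries held 2.82, 31.7, 43.9 and 14.9 CPM, and the DREADD Pilo libraries 17.7, 71.1 and 38.6 CPM. All 11 libraries of the other groups thus lay below the 3 CAG-GFP Sham libraries. Of all genes, 12.2% lay below CAG-GFP Sham in every CAG-GFP Pilo library and 12.7% in every DREADD Sham library. The share below it in all 11 libraries was not counted. The log2 fold change of CAG-GFP Pilo against CAG-GFP Sham was -2.80 ± 0.92 (SE, edgeR adjusted p = 0.277) and -2.40 ± 1.21 (SE) within set 1; it ranged from -3.69 without CAG-GFP Pilo 4 to -2.46 without CAG-GFP Pilo 3. Summed astrocyte markers were high in the same 3 libraries. Among the other 11 the order differed: CAG-GFP Pilo 1, with the most astrocyte markers (6650 CPM), held 8.45 CPM of Plxnb1, and CAG-GFP Pilo 4, with 901 CPM, held 51.1 CPM. The part of these cells in the Plxnb1 level was not tested. An antisense gene, Gm7628, shares 257 exonic bases with Plxnb1, and reads of the pair cannot be told apart without strand.

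Epha7 (ENSMUSG00000028289, chromosome 4 at 28813131 to 28967499) encodes a receptor for A-class ephrins. Its levels were 4.43, 62.2 and 21.1 CPM in CAG-GFP Sham 1 to 3 and 302, 483, 205 and 141 CPM in the CAG-GFP Pilo libraries 1 to 4. In DREADD Sham they were 311, 183, 3.2 and 12.8 CPM, so the libraries 1 and 2 of set 1 stood with CAG-GFP Pilo and the libraries 3 and 4 of set 2 with CAG-GFP Sham. DREADD Pilo held 27.4, 64.5 and 2.23 CPM. After seizures in CAG-GFP cells it differed on the log2 scale by 3.27 ± 1.43 (SE, adjusted p = 0.311) and 2.53 ± 0.87 (SE) within set 1, and it ranged from 2.77 without CAG-GFP Sham 1 to 4.48 without CAG-GFP Sham 2. Summed mature granule cell markers were 1930 to 5850 CPM in the 6 libraries with at least 141 CPM of Epha7. They were 321 to 1070 CPM in the 8 others. These markers include general neuronal genes, and their part in the result was not tested.

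Epha4 (ENSMUSG00000026235, chromosome 1 at 77367185 to 77515088), an Eph receptor that binds ephrins of both classes, stood at 29.8, 66.1 and 35.9 CPM in CAG-GFP Sham and at 79, 128, 181 and 93.2 CPM in CAG-GFP Pilo. DREADD Sham held 115, 88.3, 31.5 and 38.2 CPM and DREADD Pilo 31.7, 77.5 and 44.8 CPM. As for Epha7, the higher DREADD Sham values were those of libraries 1 and 2. The log2 fold change of CAG-GFP Pilo against CAG-GFP Sham was 1.46 ± 0.63 (SE, adjusted p = 0.309) and 1.60 ± 0.51 (SE) within set 1. Epha4, like Ephb2 below, lies outside the rule for named genes and was named after its values were seen.

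Plxna4 (ENSMUSG00000029765, chromosome 6 at 32144268 to 32588192), a co-receptor of class 3 semaphorins with neuropilins, held 6.51, 2.91 and 10.8 CPM in CAG-GFP Sham. The CAG-GFP Pilo libraries 1 to 4 contained 63.3, 86, 34.6 and 30 CPM. Among the DREADD libraries, the sham values were 33.1, 18.7, 17.7 and 33.5 CPM and the values after pilocarpine 20.8, 4.74 and 0.111 CPM. Both CAG-GFP Pilo and DREADD Sham thus lay wholly above CAG-GFP Sham. Taken singly, these groups did so for 6.55% and 9% of all genes, and the share for both at once was not counted. Against CAG-GFP Sham, CAG-GFP Pilo differed by 2.99 ± 1.18 on the log2 scale (SE, adjusted p = 0.288) and 2.23 ± 0.98 (SE) within set 1.

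Sema5a (ENSMUSG00000022231, chromosome 15 at 32244810 to 32696341), a transmembrane semaphorin with attractive and repellent actions, stood at 1.94, 1.58 and 7.54 CPM in CAG-GFP Sham. It reached 135, 153 and 33.8 CPM in the CAG-GFP Pilo libraries 1 to 3 but 4.17 CPM in CAG-GFP Pilo 4, so the groups overlapped. DREADD Sham held 77.6, 58.3, 1.17 and 21.8 CPM and DREADD Pilo 101, 58.3 and 1.89 CPM. The log2 fold change in CAG-GFP cells was 4.47 ± 1.59 (SE, adjusted p = 0.285), against 2.29 ± 1.12 (SE) within set 1, which holds CAG-GFP Pilo 3 and 4 only, and 3.91 without CAG-GFP Pilo 2 to 5.53 without CAG-GFP Sham 3. Summed oligodendrocyte markers were 19400 to 44900 CPM in the 7 libraries with at least 21.8 CPM of Sema5a other than CAG-GFP Pilo 3 (1420 CPM). DREADD Sham 3, with 41600 CPM of those markers, held 1.17 CPM of Sema5a. What those cells contribute to the Sema5a level was not tested.

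Sema6d and Ephb1 were the other members lower in every CAG-GFP Pilo library than in any CAG-GFP Sham library. Sema6d, a transmembrane semaphorin that binds plexins of the A class and the semaphorin with the highest mean per length over the 14 libraries (4.47 CPM per kb; Sema5a led in CAG-GFP Pilo and Sema4d in both DREADD groups), held 69.1, 87.4 and 72.6 CPM in CAG-GFP Sham and 42.7, 34.9, 7.91 and 0 CPM in CAG-GFP Pilo. Its log2 fold change was -1.84 ± 1.33 (SE, with adjusted p = 0.515), -4.35 ± 1.92 (SE) within set 1. It ranged from -2.42 without CAG-GFP Pilo 1 to -1.42 without CAG-GFP Pilo 4. Ephb1, a receptor of B-class ephrins, held 25.7, 38.3 and 38.7 CPM and 8.08, 14.3, 5.89 and 0 CPM in the same groups. Its log2 fold change was -2.27 ± 1.51 (SE, with adjusted p = 0.466), and -3.62 ± 2.09 (SE) within set 1. It ranged from -2.93 without CAG-GFP Pilo 2 to -1.86 without CAG-GFP Pilo 4. Of the CAG-GFP Pilo libraries, set 1 holds 3 and 4 only. CAG-GFP Pilo 4, at 0 for both genes, was at 0 for 21 members and had the fewest detected genes (9372).

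**Figure D2:**
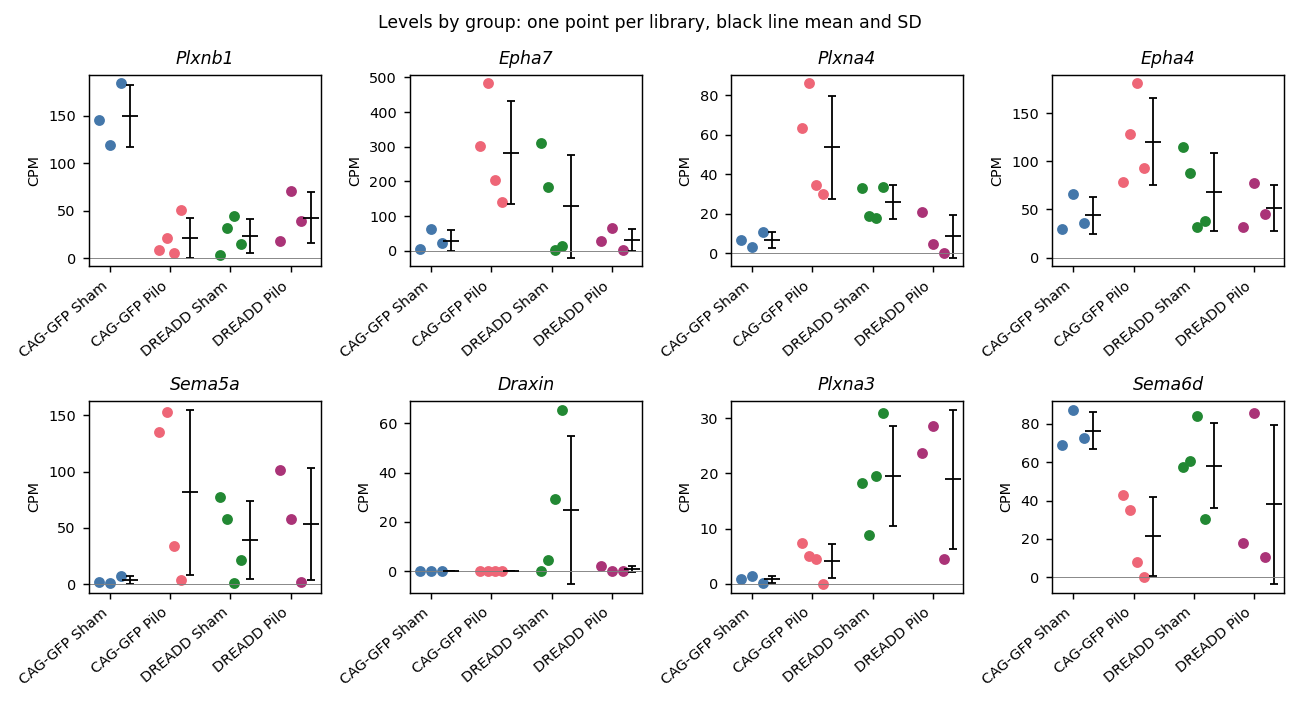
CPM of 8 members by group, 1 point per library, with the mean and SD in black. The CAG-GFP Sham points of Plxnb1 (119 to 184 CPM) lie above all others, and Draxin exceeds 3 CPM in DREADD Sham libraries only.

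**Figure D3:**
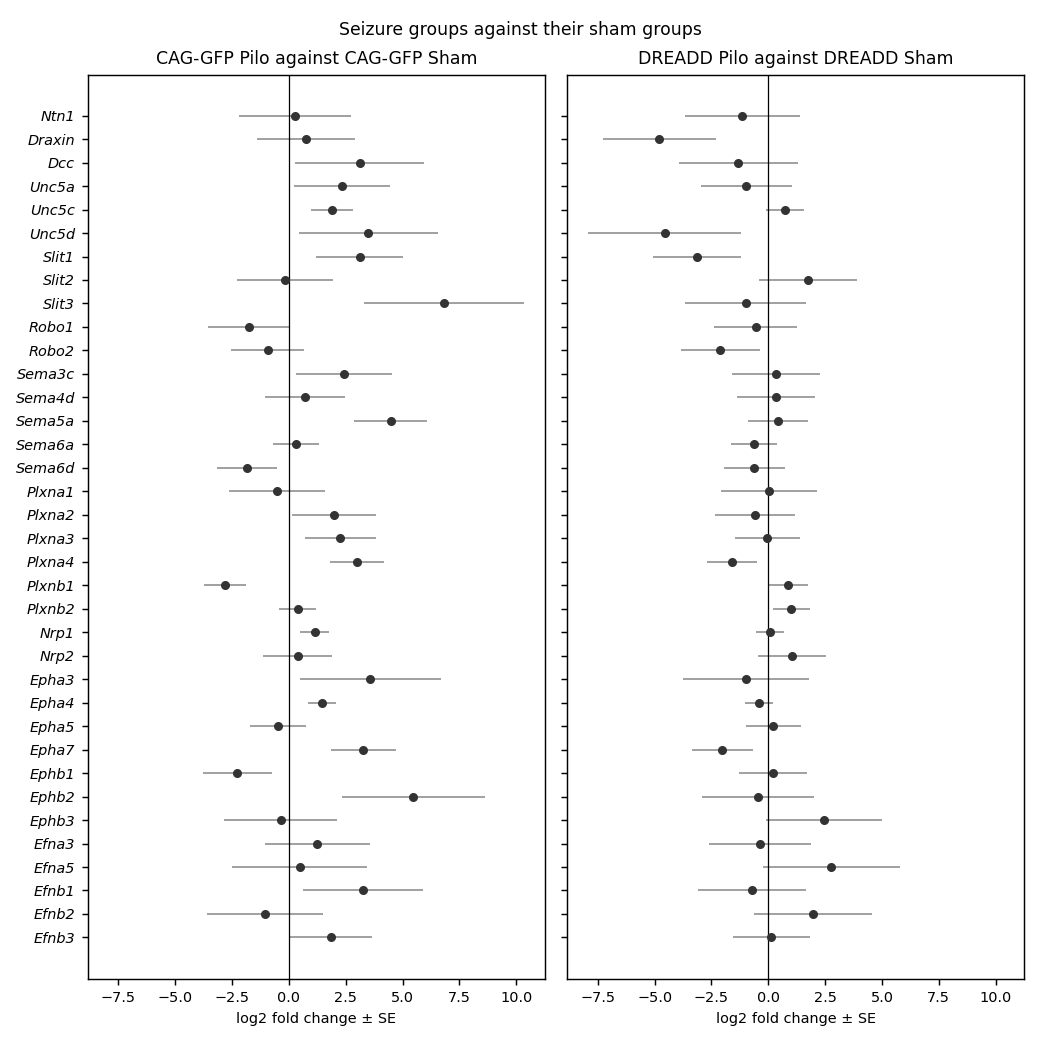
Log2 fold change (horizontal axis) with its SE for the 36 members tested, in CAG-GFP Pilo against CAG-GFP Sham (left) and DREADD Pilo against DREADD Sham (right). On the left 26 of 36 points lie right of 0 and on the right 16, and no point passed the test.

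DREADD Sham was then set against CAG-GFP Sham, which compares the constructs in the presence of CNO without seizures. Here too 0 of 36 members were called (0.3% of all genes were), and 5 (13.9%) had an unadjusted p under 0.05, against 18.6% of all genes. These were Draxin, Plxna3, Sema5a and Ephb2, higher, and Plxnb1, lower. The count was 3 without CAG-GFP Sham 1 or 3 or DREADD Sham 2, and highest at 7 without DREADD Pilo 3. Over all genes it was 2175 of 19878, 2134 of 19883, 3432 of 18233 and 3431 of 19905 in the same order. The median log2 fold change of the members was 1.12, against 0.53 for all genes, and 23 of 36 were positive (63.9%, against 61.1%). Without DREADD Sham 1 the members' median was 0.57, and without CAG-GFP Sham 2 it was 1.49. Both this comparison and the one above use the same CAG-GFP Sham libraries. Plxna3, Plxna4 and Efnb3 were higher in every DREADD Sham library (9% of all genes were), and Plxnb1 and Epha5 were lower (12.7% of all genes).

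Draxin, a secreted netrin antagonist that binds Dcc, had its highest levels in DREADD Sham. It held 0, 4.8, 29.1 and 65.5 CPM in DREADD Sham 1 to 4, at most 0.105 CPM in CAG-GFP Sham, at most 0.148 CPM in CAG-GFP Pilo, and 2.28, 0.24 and 0.111 CPM in DREADD Pilo. DREADD Sham 1 was thus as low as the CAG-GFP libraries. With 2 counts in all of CAG-GFP Sham, the ratio of means was 712 (95% exact counting interval 197 to 5880) and the edgeR adjusted p = 0.221. The interval covers the counting error of those 2 counts only, not the spread between libraries. No value was available within set 1; with library set as a covariate the log2 fold change was 7.33 ± 3.05 (SE), against 9.29 ± 3.09 (SE) without it. The latter ranged from 8.15 without DREADD Sham 4 to 12.23 without CAG-GFP Sham 3. The immature neuron markers summed to 2710 and 2450 CPM in DREADD Sham 3 and 4, the highest of the 14 libraries, and Dcx to 271 and 137 CPM; their part in the Draxin level was not tested.

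Plxna3, which with Plxna4 transduces class 3 semaphorins, held 0.845, 1.48 and 0.262 CPM in CAG-GFP Sham and 18.3, 8.92, 19.6 and 31 CPM in DREADD Sham. CAG-GFP Pilo held 7.33, 4.97, 4.43 and 0 CPM and DREADD Pilo 23.6, 28.5 and 4.56 CPM. The DREADD Sham difference was 4.49 ± 1.75 on the log2 scale (SE, adjusted p = 0.228) and 3.95 ± 2.52 (SE) within set 1. For Plxnb1 the log2 fold change was -2.68 ± 0.92 (SE, with adjusted p = 0.224) and -3.13 ± 1.26 (SE) within set 1. For Sema5a it was 3.43 ± 1.51 (SE, adjusted p = 0.256) and 4.17 ± 1.19 (SE) within set 1. Leaving out a library gave 2.88 (DREADD Sham 1) to 4.50 (CAG-GFP Sham 3) for Sema5a.

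Ephb2, a B-class Eph receptor, held 2 counts in CAG-GFP Sham and 0.0491, 8.56, 20 and 0 CPM in DREADD Sham. The ratio was 218 (95% counting interval 60.3 to 1800, edgeR adjusted p = 0.265) and rested on DREADD Sham 2 and 3. This interval too covers the counting error of the CAG-GFP Sham counts only. Efnb3, a B-class ephrin and the ephrin with the highest level per length, stood at 3.03, 13.4 and 6.86 CPM in CAG-GFP Sham and at 52, 26, 78.5 and 29.4 CPM in DREADD Sham. Its log2 fold change was 2.58 ± 1.87 (SE, with adjusted p = 0.505) and 2.30 ± 1.96 (SE) within set 1. CAG-GFP Pilo held 64.1, 37.3, 9.93 and 0 CPM of Efnb3 and DREADD Pilo 43.6, 109 and 0 CPM, so both of those groups held libraries at or above 43.6 CPM and 1 without a count.

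Epha5, an A-class Eph receptor, stood at 43.5, 52.3 and 69.9 CPM in CAG-GFP Sham and at 19.2, 17.6, 0.0583 and 28.4 CPM in DREADD Sham. On the log2 scale the difference was -1.76 ± 1.24 (SE, adjusted p = 0.488) and -1.61 ± 0.75 (SE) within set 1. CAG-GFP Pilo libraries overlapped both sham groups, at 5.92, 64.6, 69.1 and 18.8 CPM.

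Silencing after seizures was addressed by DREADD Pilo against CAG-GFP Pilo. No member was called, and neither was any gene (0% of 18676). Unadjusted p was under 0.05 for 3 members (8.33%, against 5.36% of all genes), namely Unc5d, Plxna4 and Epha7, all lower in DREADD Pilo. This count was 1 without CAG-GFP Pilo 1, 0 without CAG-GFP Pilo 2 or DREADD Pilo 3, and highest at 4 without CAG-GFP Pilo 3. Over all genes it was 1091 of 18596, 1022 of 18596, 738 of 19905 and 1494 of 17988 in the same order. Plxna4, Epha4 and Epha7 were lower in every DREADD Pilo library than in any CAG-GFP Pilo library, as were 3.15% of all genes, and no member was higher in every one (5.69% of all genes were). DREADD Pilo 3, rich in choroid plexus markers (161000 CPM) and mitochondrial counts (25.8%), held the least Plxna4 (0.111 CPM) and Epha7 (2.23 CPM) of its group. For Epha4 the lowest was DREADD Pilo 1 (31.7 CPM). The part of that make-up in these differences was not tested. The median log2 fold change of the members was 0.12, against 0.28 for all genes.

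The log2 fold changes were -2.64 ± 1.16 for Plxna4, -1.23 ± 0.63 for Epha4 and -3.17 ± 1.42 for Epha7 (SE, adjusted p = 0.882 each). Within set 2, with CAG-GFP Pilo 1 and 2 only, they were -3.11 ± 1.48, -1 ± 0.58 and -3.63 ± 1.21 (SE). The Plxna4 value ranged from -4.46 without DREADD Pilo 1 to -2.07 without DREADD Pilo 3, and the Epha7 value from -4.26 without DREADD Pilo 2 to -2.63 without DREADD Pilo 3. The 3 genes thus stood high in CAG-GFP Pilo against both CAG-GFP Sham and DREADD Pilo. The same CAG-GFP Pilo libraries enter both comparisons. Taken singly, 6.55% and 3.15% of all genes separated these groups in that direction, and the share for both at once was not counted. Mature granule cell markers, which include general neuronal genes, summed to 1970 to 5850 CPM in CAG-GFP Pilo. They summed to 321 to 857 CPM in DREADD Pilo, and their part in these differences was not tested.

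Unc5d, a netrin receptor that mediates repulsion, was listed with 59 and 38.1 CPM in CAG-GFP Pilo 2 and 3 and with no count in CAG-GFP Pilo 1 and 4. DREADD Pilo held 1 count in all. The ratio of means was 1470 (edgeR adjusted p = 0.882). Its 95% counting interval, 263 to 57900, covers the error of that 1 count only, not the spread between libraries. The ratio rested on CAG-GFP Pilo 2 and 3. Outside them Unc5d exceeded 1 CPM in CAG-GFP Sham 1 (6.46 CPM) and DREADD Sham 2 (2.17 CPM) only. Of the members higher in DREADD Pilo with a mean of at least 1 CPM there, Plxna3 had the smallest p, with a log2 fold change of 2.18 ± 1.46 (SE, with adjusted p = 0.925) and 1.63 ± 1.06 (SE) within set 2. Plxnb1 followed at 0.98 ± 0.89 (SE, adjusted p = 0.97), at 1.52 ± 0.94 (SE) within set 2, and at 1.88 without CAG-GFP Pilo 4 and 0.38 without DREADD Pilo 2.

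In DREADD cells, seizures were addressed by DREADD Pilo against DREADD Sham. None was called (0% of all genes were), none had an unadjusted p under 0.05 (5.18% of all genes did), and none separated the groups in either direction (4.39% of all genes were higher and 2.23% lower in every DREADD Pilo library). The median log2 fold change was -0.39, against 0.07 for all genes, with 16 of 36 members positive (44.4%, against 52.3%). Draxin had the smallest p, with a log2 fold change of -4.80 ± 2.49 (SE, with adjusted p = 0.973), -5.72 ± 1.64 (SE) within set 2, -7.09 without DREADD Pilo 1 and -3.67 without DREADD Sham 4.

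Slit1, a secreted ligand that repels axons and migrating neuroblasts through Robo receptors, held 42.7, 20, 0 and 42.4 CPM in DREADD Sham and 3.48, 5.28 and 0.111 CPM in DREADD Pilo. DREADD Sham 3, without a count, was the library that made these groups overlap. The log2 fold change was -3.14 ± 1.93 (SE, with adjusted p = 1) and -2.84 ± 2.30 (SE) within set 2. Per length Slit1 had the highest mean of the Slits and Robos over the 14 libraries, at 2.01 CPM per kb, but Robo2 led in CAG-GFP Sham (2.15 against 0.235 CPM per kb for Slit1) and Slit2 in DREADD Pilo (1.23 against 0.499). Plxnb2, a widely expressed plexin and the highest plexin per length, held 89.9, 15.5, 36 and 58.2 CPM in DREADD Sham and 75.6, 48.3 and 180 CPM in DREADD Pilo. Its log2 fold change was 1.02 ± 0.81 (SE, with adjusted p = 1), 1.11 ± 0.71 (SE) within set 2, 1.47 without DREADD Sham 1 and 0.28 without DREADD Pilo 3, the library with 161000 CPM of ependymal and choroid plexus markers. CAG-GFP Pilo 4 also stood high for Plxnb2, at 174 CPM, where the other 3 libraries of its group held 14.8 to 45.3 CPM. The part of ependymal and choroid plexus cells in the Plxnb2 level was not tested.

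The interaction asked whether the seizure difference in DREADD cells departed from that in CAG-GFP cells. Of 36 members 0 were called (0% of all genes), and 4 (11.1%) had an unadjusted p under 0.05, against 11.7% of all genes. Plxnb1 was positive, at 3.66 ± 1.27 on the log2 scale (SE, adjusted p = 0.396). Its seizure group lay lower than its sham group on average in CAG-GFP cells (21.4 against 149 CPM) and higher in DREADD cells (42.5 against 23.3 CPM). Negative values were those of Plxna4 (-4.58 ± 1.62, SE, adjusted p = 0.406), Epha7 (-5.30 ± 1.96, SE, adjusted p = 0.412) and Slit1 (-6.26 ± 2.73, SE, adjusted p = 0.412). Ephb1, the other positive member with the smallest p, stood at 2.49 ± 2.10 (SE, adjusted p = 0.661). No library set holds all 4 groups; with library set as a covariate the values were 3.66, -4.52, -5.05, -6.25 and 2.69 in the same order. With single libraries left out, Plxnb1 ranged from 3.10 (DREADD Pilo 2) to 4.56 (CAG-GFP Pilo 4) and Plxna4 from -6.35 (DREADD Pilo 1) to -3.97 (DREADD Pilo 3). Epha7 ranged from -6.50 (CAG-GFP Sham 2) to -4.35 (DREADD Sham 1), Slit1 from -6.95 (DREADD Pilo 2) to -5.68 (DREADD Pilo 3) and Ephb1 from 1.16 (DREADD Pilo 2) to 3.12 (CAG-GFP Pilo 2). The members' median was -1.52, against -0.43 for all genes, and 24 of 36 were negative. The other 12 were positive (33.3%, against 42.8% of all genes). The members' median ranged from -2.29 without CAG-GFP Sham 2 to -1.06 without CAG-GFP Pilo 1.

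**Figure D4:**
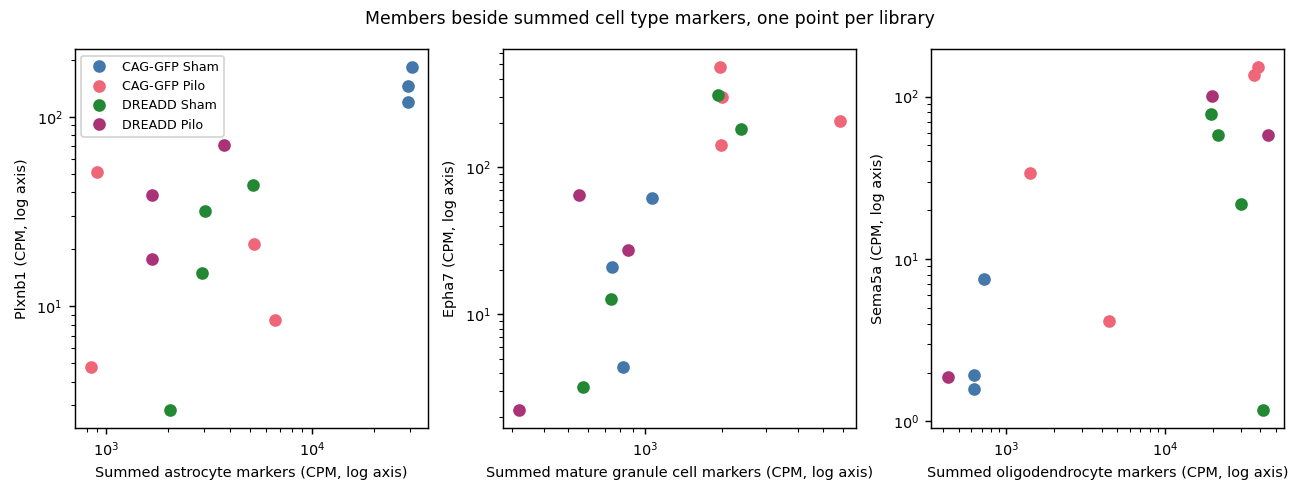
Level of Plxnb1, Epha7 and Sema5a (vertical, CPM on a log axis) beside the summed markers of astrocytes, mature granule cells and oligodendrocytes (horizontal, CPM on a log axis), 1 point per library coloured by group. The 3 CAG-GFP Sham libraries stand apart at 29200 to 30700 CPM of astrocyte markers, and the 6 libraries with at least 1930 CPM of granule cell markers hold at least 141 CPM of Epha7.

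The remaining members follow by system. Among the netrin ligands and receptors, Ntn1, the attractant and repellent ligand itself, ranged from 0 to 9.49 CPM in the CAG-GFP groups, from 0.393 to 32.8 CPM in DREADD Sham and from 1.22 to 10.6 CPM in DREADD Pilo. Dcc, the attractive receptor, had counts in 10 libraries, with 25.8 CPM in CAG-GFP Pilo 2, 13.3 CPM in DREADD Sham 1 and 11.4 CPM in DREADD Sham 4 and at most 4.62 CPM elsewhere. Unc5a, the netrin receptor with the highest level per length (3.36 CPM per kb), held 3.53, 8.04 and 5.97 CPM in CAG-GFP Sham and 0, 23.5, 14.7 and 80.3 CPM in CAG-GFP Pilo. It held 29.2, 11.1, 0 and 3.26 CPM in DREADD Sham and 5.81, 11 and 0 CPM in DREADD Pilo, so its groups overlapped throughout. Unc5c, the netrin receptor with counts in all libraries, held 5.4 to 27.2 CPM in CAG-GFP Sham, 17.3 to 78.7 in CAG-GFP Pilo, 9.34 to 30.8 in DREADD Sham and 6.34 to 57.5 CPM in DREADD Pilo.

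Robo1 and Robo2 are neighbours (chromosome 16, plus strand 72308306 to 73046095 and minus strand 73891839 to 74411825), and both had their highest group mean in CAG-GFP Sham. Robo1 stood at 28.3 ± 25.5 CPM there (SD, n = 3), with 57.1 CPM in CAG-GFP Sham 3, and Robo2 at 36.5 ± 10.5 CPM (SD, n = 3). Robo2 was at 0.3 to 9.53 CPM in DREADD Pilo, but CAG-GFP Pilo 3 held 51.5 CPM and DREADD Sham 2 held 37.9 CPM, so those groups overlapped with CAG-GFP Sham. Slit2, a ligand of both, peaked at 87.6 CPM in DREADD Pilo 3 and 54 CPM in CAG-GFP Pilo 1. Slit3 peaked at 31.6 CPM in CAG-GFP Pilo 4 and had no count in 6 libraries.

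Of the remaining semaphorins, Sema4d, the transmembrane ligand of Plxnb1, held 8.8 to 14.4 CPM in CAG-GFP Sham, where Plxnb1 stood highest. Sema4d reached 73.9 and 70.7 CPM in DREADD Sham 1 and 2 and 88 and 71.9 CPM in DREADD Pilo 1 and 2, but 0.0583 CPM in DREADD Sham 3 and 2 CPM in DREADD Pilo 3. Sema6a, another transmembrane semaphorin, ranged from 2.23 CPM in DREADD Pilo 3 to 79.5 CPM in DREADD Sham 1. Sema3c, a secreted semaphorin, was even in DREADD Pilo, at 23.7 ± 3.16 CPM (SD, n = 3), and ranged from 0.0973 to 46.5 CPM in DREADD Sham. Sema3a, the secreted repellent that signals through Nrp1, had counts in 3 libraries, with 28.1 CPM in CAG-GFP Pilo 3.

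Its receptor Nrp1 had counts in all libraries, from 29.1 CPM in CAG-GFP Sham 3 to 170 CPM in DREADD Sham 1. The Nrp1 mean was 35.8 ± 7.75 CPM (SD, n = 3) for CAG-GFP Sham and 78.7 ± 37.7 CPM (SD, n = 4) for CAG-GFP Pilo. For the DREADD groups it was 78 ± 62.2 CPM (SD, n = 4) without and 81.1 ± 13 CPM (SD, n = 3) with seizures. Nrp2, the other neuropilin, ranged from 0 to 47.5 CPM, Plxna1 from 0 to 26.4 CPM and Plxna2 from 0 to 43.2 CPM, with CAG-GFP Pilo 4 at 0 for all 3.

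Epha3, an A-class receptor, had counts in 8 libraries and peaked at 28.6 CPM in CAG-GFP Pilo 4. Ephb3 stayed at or below 11.6 CPM in all libraries and Efnb1 at or below 9.85 CPM. Efna3 and Efna5, ligands of A-class receptors, peaked at 10.3 CPM in CAG-GFP Pilo 3 and 24 CPM in DREADD Pilo 3. Efnb2, a B-class ephrin also used by arterial endothelium, peaked at 28.1 CPM in DREADD Pilo 2, the library with the highest sum of endothelial markers (2100 CPM), but had no count in DREADD Sham 3 and 4, which were next (999 and 770 CPM). The part of endothelial cells in the Efnb2 level was not tested.

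Of 78 further ligands, receptors and downstream genes of the pathway, 77 were found and 73 tested, and none was called in any of the 5 comparisons, with unadjusted p under 0.05 for 10 in CAG-GFP Pilo against CAG-GFP Sham (13.7%), 9 in DREADD Sham against CAG-GFP Sham (12.3%), 6 in DREADD Pilo against CAG-GFP Pilo (8.22%), 4 in DREADD Pilo against DREADD Sham (5.48%) and 12 in the interaction (16.4%). The shares over all genes, in the same order, were 15.4%, 18.6%, 5.36%, 5.18% and 11.7%. The ephrin Efna1 had no count in CAG-GFP Sham and means of 27 CPM in CAG-GFP Pilo and 25 CPM in DREADD Sham, at least 535-fold and 496-fold higher when CAG-GFP Sham is set to 3 counts over the group (adjusted p = 0.211 and 0.153). CAG-GFP Pilo 4 and DREADD Sham 4 were at 0 as well. Dpysl4, a collapsin response mediator that relays semaphorin signals to microtubules, differed by 3.99 ± 1.21 on the log2 scale (SE, adjusted p = 0.246) between CAG-GFP Pilo and CAG-GFP Sham and by -5.20 ± 1.59 (SE, adjusted p = 0.352) in the interaction.

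Rac1, the GTPase through which many guidance receptors reach actin, held 201, 204 and 207 CPM in CAG-GFP Sham and 75.2, 101, 62.5 and 49.3 CPM in DREADD Sham. Its log2 fold change there was -1.50 ± 0.46 (SE, adjusted p = 0.185), with 1.43 ± 0.46 (SE, adjusted p = 0.954) in DREADD Pilo against DREADD Sham and 2.60 ± 0.66 (SE, adjusted p = 0.247) in the interaction. Ablim1, an actin-binding protein, had 4 ± 1.47 (SE, adjusted p = 0.954) in DREADD Pilo against DREADD Sham. Against CAG-GFP Pilo, DREADD Pilo had -3.82 ± 1.11 (SE, adjusted p = 0.882) for Chn1, a Rac-inactivating chimaerin that acts below Epha4. Chn1 held 621 to 1780 CPM in CAG-GFP Pilo, 244 to 388 CPM in CAG-GFP Sham and 9.68 to 183 CPM in DREADD Pilo. Its DREADD Sham libraries divided as for Epha7, with 745 and 894 CPM in libraries 1 and 2 and 46.8 and 91 CPM in libraries 3 and 4.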

How the data were processed

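The authors deposited raw counts per gene for 14 libraries, without normalisation (from the values, which are whole numbers). The submitters' processing notes list edgeR, R 4.1.1, Subread, featureCounts and Bowtie2, and name hg38 as build, with no role for any; every identifier in the table is a mouse Ensembl identifier, so hg38 does not match it. How strand and multiply matching reads were handled, and with which annotation, is not given in the sources used here. GENCODE M21 (GRCm38) supplied symbols, positions and exon lengths (union of all exons); 42462 of 43346 identifiers matched once the version was dropped (98%).

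All genes were tested in 1 fit of the 14 libraries with edgeR 4.0.16 in R 4.3.3: TMM factors, the filterByExpr filter (18676 genes left), estimateDisp and the quasi-likelihood F-test, with p-values adjusted by Benjamini-Hochberg and called under 0.05. The biological coefficient of variation was 1.47. An SE is the absolute log2 fold change divided by the square root of F. The fit was tested on simulated counts. Alternatives were RLE factors, DESeq2 1.42.0, limma 3.58.1 (voom), no filter, the compared groups alone, library set or replicate number as a covariate, single library sets, and leaving out each library. Named members were the 2 higher and 2 lower with the smallest p in each comparison, among those with a mean of at least 1 CPM, and the highest per length in each of 7 role groups; other pathway genes were the 2 with the smallest p. One result among these is not reported here. Members overlapping another gene's exons (8 of 37) can share its reads. The members and lists were chosen with earlier results of these data known.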

Additional observations from a re-analysis of the deposited data

Results flagged for a closer look

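In 12 of 74 (16.2%) sets of 4 libraries (37 members in CAG-GFP Pilo and DREADD Sham), 1 library stood apart from the other 3 by a gap to its nearest neighbour that exceeds Dixon's 95% critical share of the group's range. The critical value is set so that chance gives about 1 in 20 for normally distributed values, and over all tested genes 7737 of 36679 such sets (21.1%) passed it, a larger share than among the members. In CAG-GFP Pilo these were Ntn1 in library 1 (9.49 CPM, others 0 to 0.32), Dcc in library 2 (25.8 CPM, others 0 to 4.01), Robo1 in library 2 (27.1 CPM, others 0.131 to 3.38) and Slit3 in library 4 (31.6 CPM, others 0 to 4.88). CAG-GFP Pilo 3 alone of its group held counts of Sema3a (28.1 CPM), Efna5 (19.2 CPM) and Efnb2 (10.6 CPM). In DREADD Sham they were Unc5d in library 2 (2.17 CPM, others 0 to 0.123), Sema3a in library 4 (1.69 CPM, others 0), Plxna1 in library 3 (26.4 CPM, others 0 to 1.85), Epha3 in library 1 (14.6 CPM, others 0 to 0.117) and Efnb1 in library 3 (9.85 CPM, others 0 to 0.521). In all 12 the library apart was the highest.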

How the results depend on the processing

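The count of members called was 0 in all 5 comparisons under RLE factors, no filter, library set as a covariate and each library left out (0 to 0), and 0 in the 4 comparisons between groups with the compared groups alone or within the single library set that holds both groups. DESeq2 called 3 members in CAG-GFP Pilo against CAG-GFP Sham (Sema5a, Plxna4 and Plxnb1). It called 4 in DREADD Sham against CAG-GFP Sham (Draxin, Plxna3, Ephb2 and Slit1) and 2 in the interaction (Plxna4 and Epha7). Over all genes DESeq2 called 2203 of 17479, 2655 of 17479 and 1461 of 17182 in the same order. In edgeR 45, 56 and 0 of 18676 genes were called. The limma voom fit called 1 member in DREADD Sham against CAG-GFP Sham (Plxnb1), and 858 of 18676 genes. The cause was not tested. The direction of 30 member and comparison pairs held in all 646 refits. These pairs were chosen for small p or groups that did not overlap, and not all are given above with a fold change. The refits use the same libraries or part of them, so a shared direction is no independent check. The adjusted p of Plxnb1 in CAG-GFP Pilo against CAG-GFP Sham ranged from 0.0395 to 0.583.

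Calls over all genes in CAG-GFP Pilo against CAG-GFP Sham and DREADD Sham against CAG-GFP Sham were 89 and 146 with library set as a covariate, 168 and 647 with the compared groups alone, 777 and 858 in limma voom, 471 and 530 within set 1, and 3 to 151 and 6 to 260 with 1 library left out. In DREADD Pilo against CAG-GFP Pilo and DREADD Pilo against DREADD Sham DESeq2 called 172 and 158 genes, and the covariate fit called 2 in the latter. In the interaction the covariate fit called 11, limma voom 37, no filter 3, and up to 1 was called with a library left out. The median of all genes moved with the setting (log2). In CAG-GFP Pilo against CAG-GFP Sham it went from 0.41 to -0.29 in limma voom (members 1.19 to 0.18), -0.07 within set 1 (members 0.92) and 0.16 with the covariate (members 0.60). In the interaction it went from -0.43 to 0.93 in limma voom (members -1.52 to -0.40) and 0.17 with the covariate (members -1.01). In DREADD Pilo against CAG-GFP Pilo it went from 0.28 to 0.38 under RLE factors and 1.13 in limma voom (members 0.12 to 0.19 and 1). The members' median turned sign with single libraries left out in that comparison (-0.25 to 0.30) and in DREADD Pilo against DREADD Sham (-0.89 to 0.10).

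Replicate numbers showed no pairing of the libraries: same-numbered libraries deviated together with correlations of -0.38 to 0.12 over 19 pairs, and 1 of 14 libraries correlated best with its own number. The library set was not removed from these deviations, and its order by number is reversed between CAG-GFP Pilo and DREADD Sham. A pairing could therefore be masked, and this check cannot exclude it. With the replicate block 0 members were called, and 1 gene in CAG-GFP Pilo against CAG-GFP Sham and 0 in DREADD Sham against CAG-GFP Sham. The spread between libraries, a biological coefficient of variation of 1.47, sets the precision of most members; for Draxin, Ephb2 and Unc5d the lower group held only 1 or 2 counts.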
